A study of Mus musculus with 354 samples.

Results

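The genes described here are 7 keratins (Krt5, Krt8, Krt14, Krt15, Krt17, Krt18 and Krt19) and 3 genes of epithelial differentiation and adhesion (Krtdap, Plet1 and Cdh1), 10 of the 55367 genes counted in single cells of the neonatal mouse cochlea. They were chosen by name, with their values in these cells known, and among the values that chose them were the few counts of Krtdap and Krt17 in Control cells. Their differences between genotypes are therefore given as a description with no test. At least 1 count was found for 9 of the 10, and 8 passed the filter on low counts of the genotype comparison. Krt5 and Krt14 did not pass it.

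The cells were sorted singly by GFP from pups at P3 to obtain cochlear supporting cells, and cDNA was made with the SMART-Seq Single PLUS kit. CA-ERBB2 pups carried TetON-CAERBB2, which encodes a constitutively active ERBB2 receptor, beside the alleles Fgfr3-iCre and ROSA-floxed-rtTA/GFP. Control pups were their littermates without TetON-CAERBB2, which carried Fgfr3-iCre as well as the allele ROSA-floxed-rtTA/GFP, so that both genotypes had the Cre, the reporter and the doxycycline-responsive activator. Tamoxifen at 75 mg/kg was given at P0 and P1 and doxycycline at 100 mg/kg at P2. The labels list this treatment for the CA-ERBB2 cells, and the protocol text is attached to the cells of both genotypes. Because Fgfr3-iCre drives recombination, GFP marks the cells in which the Fgfr3 promoter had been active and not a single cell type, and the sexes of the pups were not determined. Each genotype comprised 177 cells on 3 plates of 59 wells. Each plate was taken as 1 replicate of cells from pooled pups, and the spread between plates includes the spread between sorts.

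Keratins are the intermediate filament proteins of epithelia and assemble as pairs of a type I and a type II chain. KRT8 and KRT18 form the pair of simple epithelia, to which KRT19 is often added, and KRT5 and KRT14 form the pair of the basal layer of stratified epithelia, where KRT15 is also found. KRT17 is known from skin appendages and from injured or activated keratinocytes. KRTDAP is a small secreted protein of differentiating keratinocytes, PLET1 is a surface protein found on epithelial progenitors, and CDH1 (E-cadherin) is the main adhesion molecule of adherens junctions. The auditory sensory epithelium is a simple epithelium in which KRT8, KRT18 and CDH1 are known.

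The members lie on 5 chromosomes (GRCm38, Gencode). Krt8 (chr15:101996698-102004482, minus strand), Krt18 (chr15:102028180-102032027, plus strand) and Krt5 (chr15:101707070-101712898, minus strand) are in the keratin cluster of chromosome 15. Krt15 (chr11:100131758-100135928), Krt19 (chr11:100140810-100148665), Krt14 (chr11:100203162-100207548) and Krt17 (chr11:100256217-100261029) follow each other on the minus strand of chromosome 11. Krtdap is at chr7:30787896-30791097, Plet1 at chr9:50494525-50505482 and Cdh1 at chr8:106603351-106670246, all on the plus strand. The values are sums over all exons of a gene.

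RefSeq promoters were given for 6 of the 10 members, and none for Krt15, Krt17, Krt19 or Cdh1. The 250 bases before the RefSeq start are shown for Krtdap and Plet1, which were low on the Control plates, and for the simple epithelial keratin Krt18, which both genotypes expressed (GRCm38.p6, each on the plus strand, chr7:30787655-30787904, chr9:50494275-50494524 and chr15:102027966-102028215). Capitals mark matches to the TATA box TATAAA and to the AP-1 pattern TGANTCA, searched on both strands. In this pattern N stands for any base, so that a match need not be a full AP-1 site.
Krtdap: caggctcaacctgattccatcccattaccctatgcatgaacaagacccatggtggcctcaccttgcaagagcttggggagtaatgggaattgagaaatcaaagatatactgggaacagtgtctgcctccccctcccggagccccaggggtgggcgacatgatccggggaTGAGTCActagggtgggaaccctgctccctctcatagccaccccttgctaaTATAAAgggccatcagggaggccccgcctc
Plet1: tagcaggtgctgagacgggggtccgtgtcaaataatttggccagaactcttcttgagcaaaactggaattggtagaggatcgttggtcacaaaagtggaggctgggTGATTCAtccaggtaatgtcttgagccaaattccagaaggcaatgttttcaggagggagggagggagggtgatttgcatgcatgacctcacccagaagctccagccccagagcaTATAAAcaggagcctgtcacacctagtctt
Krt18: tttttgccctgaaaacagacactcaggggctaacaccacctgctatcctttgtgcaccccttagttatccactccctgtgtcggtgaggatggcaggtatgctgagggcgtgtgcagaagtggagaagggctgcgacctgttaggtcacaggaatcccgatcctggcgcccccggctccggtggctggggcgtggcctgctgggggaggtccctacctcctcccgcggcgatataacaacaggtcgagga
Krtdap and Plet1 each held 1 match to both motifs, with the TATA box starting 30 bases before the start in each and the AP-1 match 81 and 144 bases before it. The middle base of the AP-1 match was G in Krtdap and T in Plet1. Krt18 and the other 3 members with a sequence (Krt5, Krt8 and Krt14) held neither. Of 32851 RefSeq promoters of this length, 12.4% held the TATA box, 6.75% the AP-1 pattern with any middle base and 1.21% both.

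The libraries differed in depth and in the number of genes detected. The total per cell ranged from 1443 to 5178221 counts with a median of 2866362. Totals under 100000 were found in 2 CA-ERBB2 and 33 Control cells. Of the Control cells, 23 were on plate 2 and 10 on plate 3, and the shares of all cells below include them. The median number of genes detected was 10198 on CA-ERBB2 plate 1 and 8679 on Control plate 1, but between 1742 and 2954 on the other 4 plates. Wells A12 to D12 of every plate (24 wells) held a median of 15538 genes against 3244 in all other wells. The labels do not set these wells apart, and whether each held a single cell was not tested. The plate levels, fold changes and calls include these wells. The main detection and co-detection counts are also given without them. Supporting cell markers (Sox2, Jag1, Prox1, Fgfr3, Sox9 and Sox10) were found on all plates, with summed levels of 420.6 to 888.3 CPM in CA-ERBB2 and 293.8 to 1002 CPM in Control plates. Erbb2, the check of the genotypes, was at 106, 46.05 and 119.6 CPM on the CA-ERBB2 plates and at 19.82, 3.242 and 12.35 CPM on the Control plates.

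Levels are given per plate as CPM, the counts summed over its cells and scaled to a common total of 1000000 counts with TMM factors. Krtdap, Plet1 and Krt17 were higher on every CA-ERBB2 plate than on every Control plate. Krt8, Krt18, Krt19, Krt15 and Cdh1 overlapped between the genotypes. In the edgeR quasi-likelihood test over all 21416 genes tested, 0.00467% (1 gene, Serpinb2) passed an adjusted p of 0.05, 5.16% passed an unadjusted p of 0.05, and by DESeq2 1.19% of 19640 genes passed an adjusted p of 0.05. Of the 8 members tested, edgeR called 0, an unadjusted p under 0.05 was found for 3 (Krt17, Krtdap and Plet1), and DESeq2 called Krtdap among the 7 to which it gave an adjusted p. Every CA-ERBB2 plate lay above every Control plate in 4.2% of the genes tested, and for 3 of the 8 members. Since the members were chosen on this contrast, these counts stand beside the background only.

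**Figure D1:**
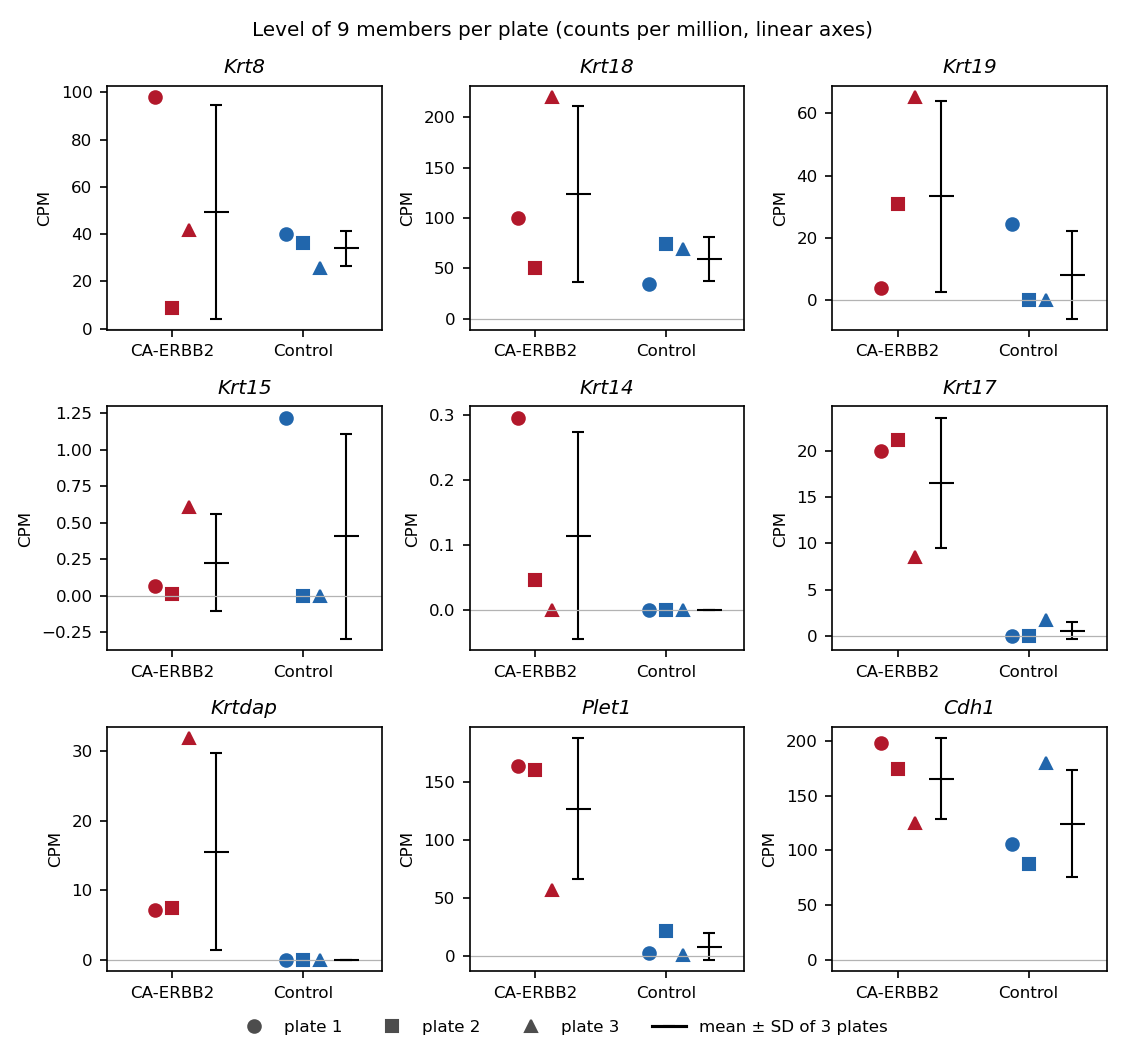
Level of 9 members on each plate in CPM on linear axes, with CA-ERBB2 plates in red, Control plates in blue, a symbol for each plate number, and the mean ± SD of 3 plates as a black bar. Krt17, Krtdap and Plet1 do not overlap between the genotypes, whereas Krt8 spans 8.564 to 98.01 CPM on the CA-ERBB2 plates, around all 3 Control plates.

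Of the simple epithelial keratins, Krt18 was at 100.3, 50.6 and 220.2 CPM on CA-ERBB2 plates 1, 2 and 3 and at 34.63, 74.65 and 69.77 CPM on Control plates 1, 2 and 3. The means were 123.7 ± 87.18 and 59.68 ± 21.83 CPM (SD, n = 3), a log2 fold change of 1.05 (SE 0.63), and CA-ERBB2 plate 2 lay below 2 of the Control plates. Its partner Krt8 was at 98.01, 8.564 and 41.54 CPM on the CA-ERBB2 plates and at 40.03, 36.2 and 25.73 CPM on the Control plates. The log2 fold change of Krt8 was 0.54 (SE 0.78), and without CA-ERBB2 plate 1 it was -0.45. Krt8 shares 23.46% of its 75-base windows with the pseudogene Krt8-ps and with Gm36026, a noncoding gene on the other strand, so that some of its reads could have been counted elsewhere.

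Krt19, the keratin that lacks most of the tail domain, was at 3.99, 30.91 and 65.15 CPM on the CA-ERBB2 plates and at 24.41, 0.008399 and 0.0248 CPM on the Control plates. Control plates 2 and 3 held 1 and 3 counts of it, and Control plate 1 held 5804. The log2 fold change of 2.03 (SE 1.99) turned on this plate and was 10.89 without it. Few cells carried the counts: the 3 highest cells held 92.0% of the counts in CA-ERBB2 and 94.7% in Control.

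The keratins of the basal layer were at or near 0. Krt5 had no count in any cell, and 0 of 177 cells of a genotype allow a share of cells with a count of up to 1.69% when 3 cells are taken as the limit, or 2.06% by the exact binomial interval. Its partner Krt14 had 74, 5 and 0 counts on the CA-ERBB2 plates and none on the Control plates. With 3 counts set over the Control cells the ratio would be 23.8-fold, but counts within a cell are not independent. The 79 counts of Krt14 came from 4 cells, 52 of them from 1 cell. The shares of cells were 2.26% (0.619% to 5.68%) and 0% (0% to 2.06%), with overlapping intervals. Of the 75-base windows of Krt14, 5.707% are shared with Krt16. Krt15 was at 0.0641, 0.009149 and 0.6098 CPM on the CA-ERBB2 plates and at 1.22, 0 and 0 CPM on the Control plates, with 276 of its 290 Control counts in 1 cell. Its 4 CA-ERBB2 cells were all in wells A12 to D12, and the log2 fold change of -0.85 (SE 2.33) turned to 7.97 without Control plate 1 and to 2.60 with the plate number as a replicate block.

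Krt17 was at 20.0, 21.21 and 8.471 CPM on the CA-ERBB2 plates and at 0.02523, 0 and 1.653 CPM on the Control plates. The lowest CA-ERBB2 plate was above the highest Control plate, and the log2 fold change was 4.89 (SE 1.94). It was 10.16 without Control plate 3, which held 200 of the 206 Control counts. The Control counts came from 3 cells with 6, 49 and 151 counts, and 2 of these cells were in wells D12 of plate 1 and A12 of plate 3. The third, in well C1 of plate 3, had 7177 genes detected and 44.3 CPM of Krt17. No 75-base window of Krt17 is shared with another annotated transcript.

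Krtdap showed the largest fold change of the members. It was at 7.232, 7.475 and 31.88 CPM on the CA-ERBB2 plates and at 0.01682, 0 and 0 CPM on the Control plates, a fitted change of 2050-fold (SE 1.85 on the log2 scale). The CA-ERBB2 plates held 5497 counts and the Control plates 4. All 4 Control counts were in 1 cell of well B12 on plate 1, so that without wells A12 to D12 no Control cell had a count of Krtdap.

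Plet1 was at 164.1, 160.4 and 56.44 CPM on the CA-ERBB2 plates and at 2.267, 20.92 and 0.2398 CPM on the Control plates, a log2 fold change of 4.02 (SE 1.28). Of the 3059 Control counts 2491 were on plate 2, and 51.8% were in 1 cell. Plet1os, the antisense gene at the same place, was at 63.13, 70.85 and 16.37 CPM on the CA-ERBB2 plates and at 0.8579, 9.172 and 0 CPM on the Control plates. The exons of both genes share 261 bases, 13.41% of the exons of Plet1. In the 33 CA-ERBB2 cells with at least 10 counts of each, Plet1os had between 0.128 and 0.656 counts per count of Plet1, with a median of 0.384. In 9 Control cells this ratio had a median of 0.41 (0.301 to 0.583). The authors counted reads by strand, and the kit was not stated to mark strand in the sources used here, so that reads of Plet1 and Plet1os may not be told apart.

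Cdh1 was expressed on all plates of both genotypes, and their levels overlapped. It was at 197.5, 173.9 and 125.1 CPM on the CA-ERBB2 plates and at 106, 87.19 and 179.4 CPM on the Control plates, a log2 fold change of 0.41 (SE 0.49). With every cell weighted equally the estimate was -0.40 (SE 1.58). Fewer cells with a gene and less RNA per cell cannot be told apart in these plate sums, and the shares of cells are therefore given next.

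Per kilobase of exon, the levels on the CA-ERBB2 plates were in the order Krt18 (86.1 ± 60.67 CPM per kb, SD, n = 3), Plet1 (65.22 ± 31.4), Cdh1 (36.18 ± 8.065), Krt8 (25.22 ± 23.1), Krtdap (22.87 ± 20.85), Krt19 (17.98 ± 16.52), Krt17 (10.68 ± 4.533), Krt15 (0.1289 ± 0.1879) and Krt14 (0.06489 ± 0.09079). On the Control plates the order was Krt18 (41.53 ± 15.19), Cdh1 (27.15 ± 10.65), Krt8 (17.36 ± 3.781), Krt19 (4.392 ± 7.592), Plet1 (4.011 ± 5.856), Krt17 (0.3608 ± 0.6108), Krt15 (0.2301 ± 0.3985) and Krtdap (0.008258 ± 0.0143). Krt18 stood first in both genotypes. Neighbours in these orders differed by less than the larger of their SDs, except for Krt17 above Krt15 in CA-ERBB2 and for Krt8 above Krt19 in Control.

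A member was called detected in a cell with at least 1 count. Krt17 was detected in 17, 4 and 4 of 59 cells on CA-ERBB2 plates 1, 2 and 3, and in 1, 0 and 2 cells on the Control plates. The shares were 14.1% (25 of 177 cells, 95% exact binomial interval 9.35% to 20.1%) and 1.69% (3 of 177, 0.351% to 4.87%). The difference of 12.4 percentage points was 5.08 without CA-ERBB2 plate 1, the plate with the most genes per cell. Without wells A12 to D12, Krt17 was detected in 17 CA-ERBB2 cells and 1 Control cell of 165 each. These intervals cover counting error only, and cells of a plate are not independent animals.

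Krtdap was detected in 9, 4 and 7 cells on the CA-ERBB2 plates and in 1, 0 and 0 on the Control plates. The shares were 11.3% (7.04% to 16.9%) and 0.565% (0.0143% to 3.11%), and every CA-ERBB2 plate was above every Control plate. Unlike Krt17, Krtdap was about as frequent on CA-ERBB2 plate 3 as on plate 1. Without wells A12 to D12 it was detected in 13 of 165 CA-ERBB2 cells and in 0 of 165 Control cells, and with each cell thinned to 100000 counts in 16 of 175 and 0 of 144.

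Plet1 was detected in 22, 10 and 6 CA-ERBB2 cells and in 9, 4 and 3 Control cells per plate, 21.5% and 9.04% of all cells. The plates of the genotypes overlapped in this share, although they did not in level. In the cells with Plet1 the median was 314.6 CPM in CA-ERBB2 and 12.91 CPM in Control. Thinned to 100000 counts, the shares were 19.4% and 4.86%.

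Krt18 and Krt8, the simple epithelial pair, were detected on every plate. Krt18 was detected in 28, 10 and 8 CA-ERBB2 cells and in 16, 8 and 12 Control cells per plate, and Krt8 in 26, 11 and 5 and in 16, 4 and 13. Krt19 was detected in 11, 8 and 3 CA-ERBB2 cells and in 7, 1 and 1 Control cells, but thinned to 100000 counts in 5.14% and 4.17% of the cells. Cdh1 was the most widely detected member, in 37, 21 and 10 CA-ERBB2 cells and in 43, 16 and 25 Control cells. For each of these 4 genes the genotypes overlapped.

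**Figure D2:**
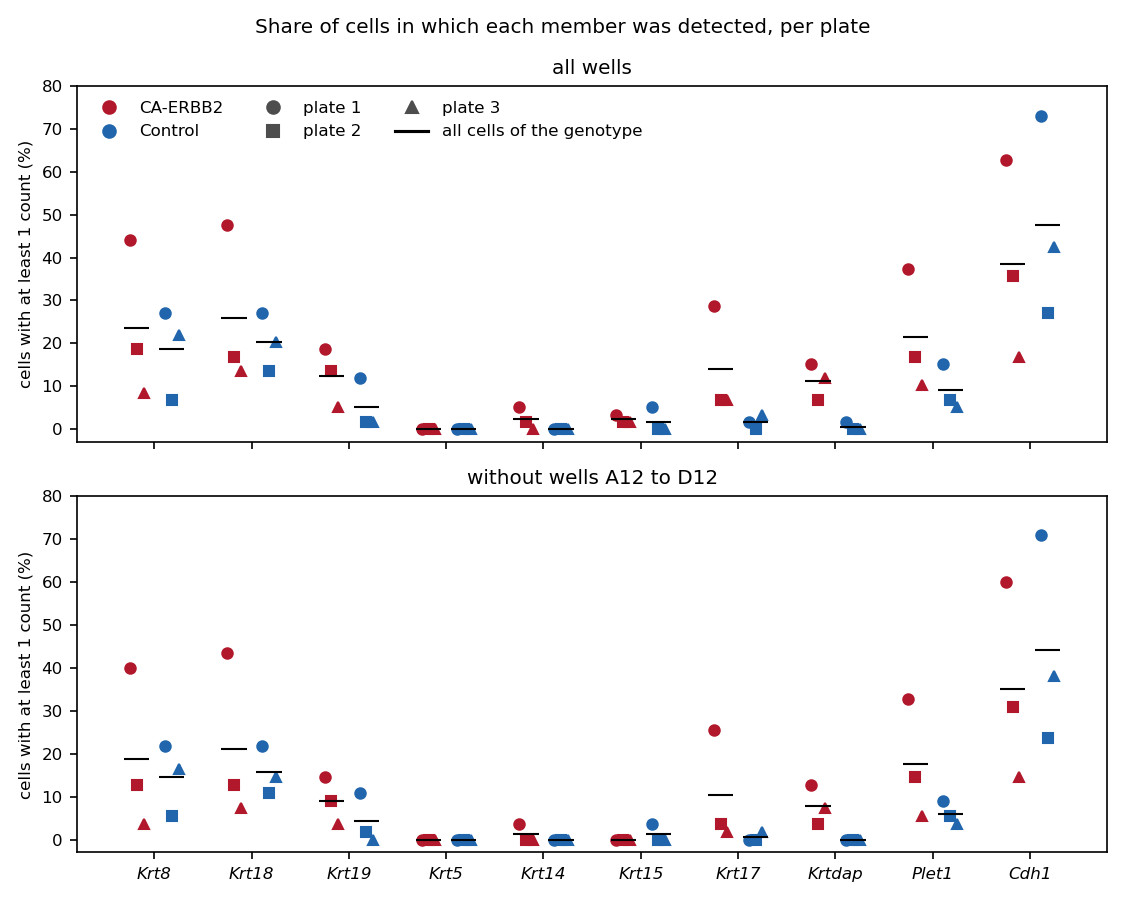
Share of cells with at least 1 count of each member on each plate in percent, with CA-ERBB2 in red, Control in blue, a symbol for each plate number and a black line at the share of all cells of the genotype, in all wells (top) and without wells A12 to D12 (bottom). Plate 1 is the highest of its genotype for most members, and Krtdap is between 6.78% and 15.3% on the CA-ERBB2 plates and at most 1.69% on the Control plates.

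Cells in which a member was detected were rich in genes. CA-ERBB2 cells with Krt17 had a median of 12469 genes against 3085.5 in the other CA-ERBB2 cells, and Control cells with Krt18 had 10089 against 2726. Among cells with at least 8000 genes, a limit chosen after seeing the data, Krt17 was detected in 22 of 67 CA-ERBB2 cells (17 of 53, 2 of 7 and 3 of 7 by plate) and in 2 of 51 Control cells (1 of 35, 0 of 8 and 1 of 8). Outside wells A12 to D12, Krt17 was found in 14 of 55 such CA-ERBB2 cells, all on plate 1 (14 of 49, 0 of 3 and 0 of 3 by plate), and in 0 of 40 Control cells. Krtdap was detected in 14 of the 67 CA-ERBB2 cells and 1 of the 51 Control cells, and Krt18 in 37 and 26. Without these wells Krtdap was in 7 of 55, again all on plate 1, and in 0 of 40, and Krt18 in 26 and 17. The median number of genes in these cells was 10809 in CA-ERBB2 and 10118 in Control. Cdh1 was detected in 47 of 67 and 46 of 51.

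Krt8 and Krt18 were found together in the same cells in both genotypes. Of 42 CA-ERBB2 cells with Krt8, 35 had Krt18 (83.3%, 68.6% to 93.0%), and of 33 Control cells with Krt8, 26 had it (78.8%, 61.1% to 91.0%). Without wells A12 to D12 these were 25 of 31 (80.6%) and 17 of 24 (70.8%). In cells without Krt8, Krt18 was detected in 8.15% of the CA-ERBB2 and 6.94% of the Control cells. Where both had at least 10 counts, the count of Krt18 was a median of 1.08 times that of Krt8 in 33 CA-ERBB2 cells and 1.18 times in 23 Control cells. The range of this ratio was wide, from 0.227 to 216 in CA-ERBB2 and from 0.149 to 10.4 in Control.

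Krt17 was found almost wholly inside the Krt18 cells. Of the 25 CA-ERBB2 cells with Krt17, 24 had Krt18, 23 had Krt8, 23 had Plet1, 23 had Cdh1, and 25 had Epcam, a surface adhesion molecule of epithelia. All 3 Control cells with Krt17 had Krt8, Krt18 and Cdh1. Conversely, of 46 CA-ERBB2 cells with Krt18, 24 had Krt17 (52.2%, 36.9% to 67.1%), as did 3 of 36 Control cells with Krt18 (8.33%, 1.75% to 22.5%). By plate these were 17 of 28, 4 of 10 and 3 of 8 in CA-ERBB2, and 1 of 16, 0 of 8 and 2 of 12 in Control. Every CA-ERBB2 plate was above every Control plate in this share. Without wells A12 to D12 they were 16 of 35 and 1 of 26, and no Krt17 was then found in the 4 Krt18 cells of CA-ERBB2 plate 3.

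Krtdap and Plet1 were also counted within the Krt18 cells. Of the CA-ERBB2 cells with Krt18, 16 of 46 had Krtdap (34.8%, 21.4% to 50.2%) and 32 of 46 had Plet1 (69.6%, 54.2% to 82.3%). In Control these were 1 of 36 (2.78%, 0.0703% to 14.5%) and 11 of 36 (30.6%, 16.3% to 48.1%). Leaving out wells A12 to D12, 9 of 35 CA-ERBB2 cells with Krt18 had Krtdap and 23 of 35 had Plet1, against 0 of 26 and 6 of 26 in Control. Of the 20 CA-ERBB2 cells with Krtdap, 14 had Krt17, which is 56.0% of the cells with Krt17 and 70.0% of those with Krtdap. On CA-ERBB2 plate 3, 2 of 7 cells with Krtdap had Krt17, against 9 of 9 on plate 1. Krt18 was found in 16 of the 20 cells with Krtdap, in 9 of 9, 4 of 4 and 3 of 7 by plate. Outside wells A12 to D12, 8 of 13 cells with Krtdap had Krt17 and 9 of 13 had Krt18. The 4 of these 13 cells on CA-ERBB2 plate 3 held 61, 174, 1139 and 1412 counts of Krtdap but none of Krt8, Krt17, Krt18, Plet1 or Cdh1. The cells with Krtdap on this plate thus lay partly outside the Krt18 cells. In all wells, the 4 CA-ERBB2 cells with Krt14 all had Krt8, Krt18, Plet1 and Cdh1, and 3 of them had Krt17. Of these 4 cells, 2 were in wells A12 to D12, and 1 of the 2 elsewhere had Krt17.

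**Figure D3:**
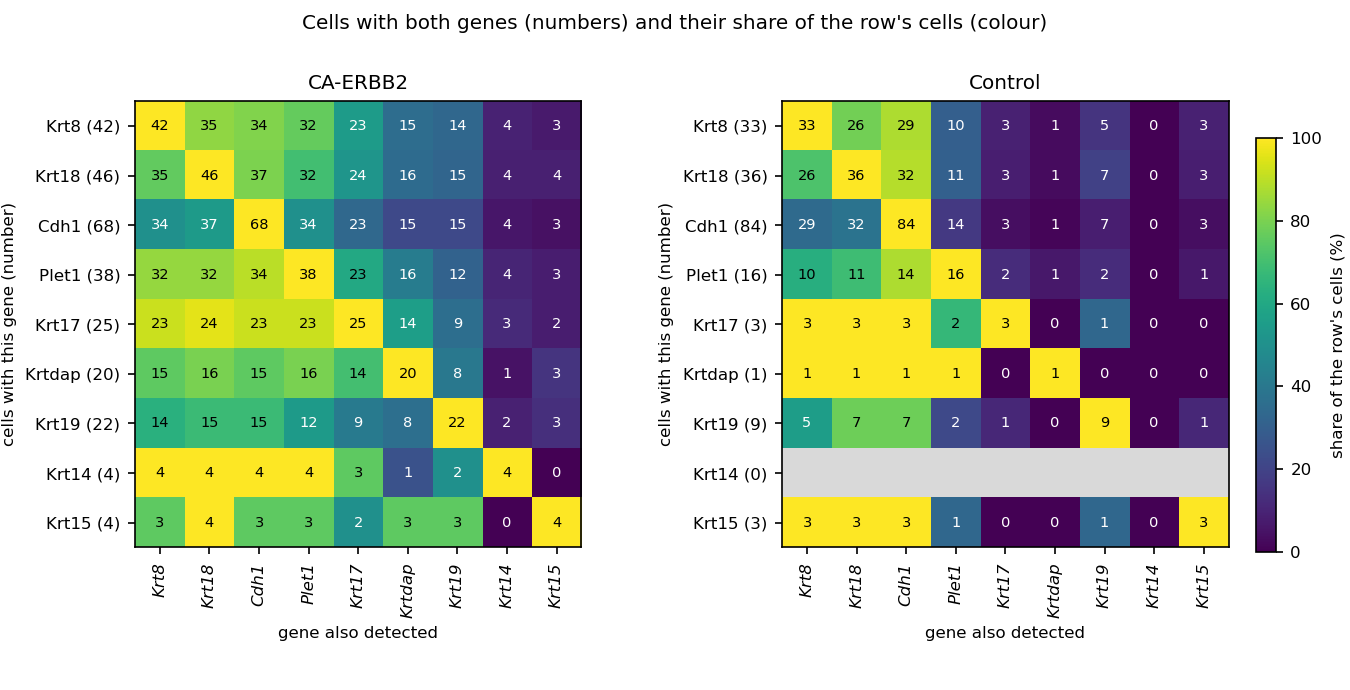
Numbers of cells with both genes of a pair, with the colour giving the share of the row's cells in percent, for 177 CA-ERBB2 cells (left) and 177 Control cells (right). The number of cells with each gene stands in parentheses, grey marks a gene with no cell, and the row of Krt18 holds 24 of 46 cells with Krt17 in CA-ERBB2 and 3 of 36 in Control.

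**Figure D4:**
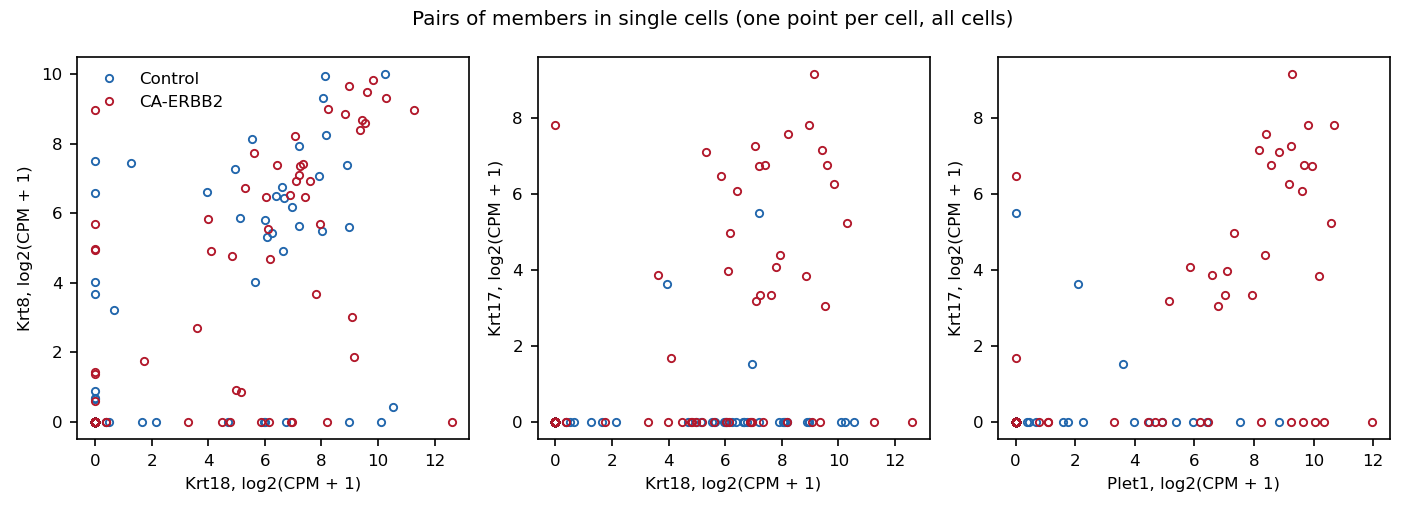
Levels of 3 pairs of members in all single cells as log2(CPM + 1), with a point per cell, CA-ERBB2 in red and Control in blue. Krt8 and Krt18 vary together in cells of both genotypes, and the cells with Krt17 are CA-ERBB2 cells except for 3.

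The number of members detected per cell was also counted. At least 5 of the 10 members were detected in 19, 6 and 2 cells on the CA-ERBB2 plates and in 5, 0 and 1 on the Control plates. The CA-ERBB2 plates overlapped the Control plates in this count, since plate 3 lay below Control plate 1. Krt8, Krt18, Krt17 and Plet1 were detected together in 22 CA-ERBB2 cells, of which 17 were on plate 1, and in 2 Control cells. Without wells A12 to D12 these were 15 and 0, and cells with at least 5 members numbered 18 and 2. The most members in a cell were 8 in CA-ERBB2 and 6 in Control, and 7 and 5 without wells A12 to D12. None was detected in 87 CA-ERBB2 and 83 Control cells, counted over all cells, also those with totals under 100000.

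**Figure D5:**
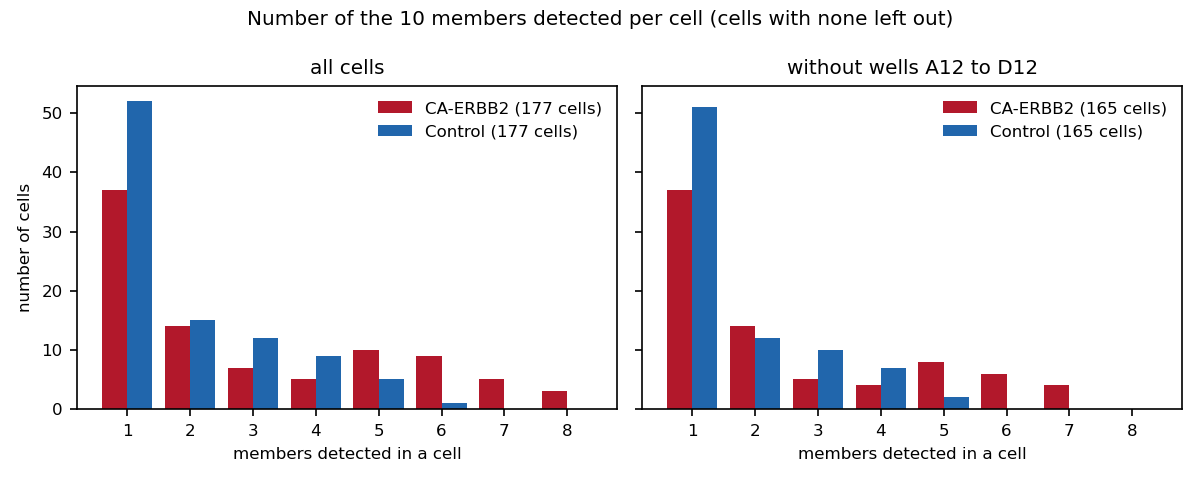
Number of cells by how many of the 10 members were detected, for cells with at least 1 member, in all wells (left) and without wells A12 to D12 (right), with CA-ERBB2 in red and Control in blue. Cells with 7 or 8 members occur in CA-ERBB2 only, those with 8 only in wells A12 to D12, and Control cells are more frequent among those with 1 member.

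The cells with Krt17 also had markers of supporting cells and of the greater epithelial ridge. Of the 25 CA-ERBB2 cells with Krt17, 23 had Sox2, the transcription factor of the sensory domain, and 24 had Fgfr3. Of the 22 CA-ERBB2 cells with Krt18 and no Krt17, 10 had Sox2 and 12 had Fgfr3, with a median of 8970.5 genes detected against 12469. Of the 36 Control cells with Krt18, 27 had Sox2 and 27 had Fgfr3. Most other cells had neither marker detected. Of the 130 CA-ERBB2 cells with neither Krt17 nor Krt18, 13 had Sox2 and 25 had Fgfr3. Of the 141 Control cells without Krt18, 22 had Sox2 and 21 had Fgfr3. The squamous transcription factor Trp63 was found in 4 of the 25 cells with Krt17. When wells A12 to D12, which held 8 of the 25, were left out, Sox2 and Fgfr3 were each in 16 of 17 cells with Krt17 and Trp63 in 0 of 17. Sox2 was then in 7 of 19 CA-ERBB2 cells with Krt18 alone and in 19 of 26 Control cells with Krt18. In all wells, the cells with Krt17 had a median of 3 of the 9 hair cell markers. The medians were 1 in the CA-ERBB2 cells with Krt18 alone and 2 in the Control cells with Krt18. Of the 8 periotic mesenchyme markers the medians in this order were 4, 6 and 4, and of the 8 immune markers 2, 1 and 1. Without wells A12 to D12 they were 2, 1 and 2 for hair cells, 3, 5 and 3 for mesenchyme, and 2, 1 and 1 for immune cells. Of the 19 greater epithelial ridge markers the medians were 14, 11.5 and 13 in all wells, and 14, 11 and 11 without these wells. Of the 18 markers of Deiters, pillar and Hensen cells they were 13, 8.5 and 11, and 13, 8 and 10. All genes of the 11 marker lists had counts in some cell. The part of these markers and of depth in the co-detection was not tested.

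Markers of other cell types also differed between the plates of the genotypes. The 5 erythroid genes summed to 31.24 to 688.7 CPM on the CA-ERBB2 plates and to 3160 to 7062 CPM on the Control plates, and 3 of the 5 did not overlap. The immune markers summed to 60.79 to 882.4 and 365.5 to 907.6 CPM, and the hair cell markers to 182 to 493.5 and 95.81 to 1516 CPM, both with overlap. Their part in the levels of the members was not tested.

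The other genes of stratified and simple epithelia were taken from 4 lists and from the remaining 43 keratins, 163 genes in all, of which 100 were tested. By edgeR 0 of the 100 passed an adjusted p of 0.05, and 8 had an unadjusted p under 0.05, beside 5.16% of all genes. Of these 8, 7 were higher and 1 lower in CA-ERBB2. DESeq2 called 4 of 96, beside 1.19% of all genes, with Ivl, Lgals7 and Dsp higher and Lama3 lower. The median log2 fold change was 0.00 for the list genes and -0.02 for all genes tested. Every CA-ERBB2 plate lay above every Control plate for 9 of the 100 list genes, beside 4.2% of all genes, and below for 5, beside 4.88% of all genes.

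Of the remaining keratins, 35 of 43 had a count and 10 were tested, with a median log2 fold change of -0.65, and for 0 of the 10 did the plates separate. The highest was Krt10, a keratin of the suprabasal epidermis, at 68.23 ± 50.56 CPM in CA-ERBB2 and 27.34 ± 12.96 CPM in Control (SD, n = 3). Its log2 fold change was 1.32 (SE 0.70, edgeR adjusted p = 0.911). Krt7, a keratin of simple and glandular epithelia, was at 24.25, 3.843 and 35.49 CPM on the CA-ERBB2 plates and 6.207, 0.0504 and 7.25 CPM on the Control plates (log2 fold change 2.23, SE 1.40). Krt1, the partner of Krt10, was at 3.298 ± 5.103 and 4.962 ± 0.6808 CPM, and the keratin-like Krt222 at 1.836 ± 2.18 and 1.323 ± 1.166 CPM.

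In the list of the cornified envelope and stratification, 15 of 38 genes were tested, and the median log2 fold change was 0.34. An unadjusted p under 0.05 was found for 3 of the 15, beside 5.16% of all genes. Ivl (involucrin), a precursor of the cornified envelope, was at 0.3125, 2.278 and 3.858 CPM on the CA-ERBB2 plates and had 0 counts on the Control plates (edgeR adjusted p = 0.774). Its 675 counts were in 5 cells. Sprr1a, a small proline-rich protein of the same structure, was at 0.8253, 34.04 and 0.5322 CPM on the CA-ERBB2 plates with 0 Control counts, so that plate 2 held most of it (edgeR adjusted p = 0.774), and was found in 7 cells. Lgals7, galectin-7 of stratified epithelia, was at 0.3806, 25.1 and 27.12 CPM on the CA-ERBB2 plates and between 0.2481 and 0.6035 CPM on the Control plates, which overlapped. Cd24a, Klf4 and Lor were at 318.7 ± 183.1, 119.9 ± 36.52 and 11.71 ± 9.032 CPM in CA-ERBB2, and at 398.3 ± 251.4, 115 ± 25.09 and 9.259 ± 9.122 CPM in Control, each within the spread between plates.

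In the list of desmosomes and hemidesmosomes, 19 of 26 genes were tested and the median log2 fold change was 0.14. Dsp (desmoplakin), which links keratin filaments to desmosomes, was at 6.675, 5.142 and 27.55 CPM on the CA-ERBB2 plates and at 0.7444, 0.1176 and 1.868 CPM on the Control plates (log2 fold change 3.85, SE 1.36, edgeR adjusted p = 0.911). Lama3, a laminin chain of the basement membrane, was lower, with 3 counts on the CA-ERBB2 plates and 1817 on the Control plates (edgeR adjusted p = 0.774). Itga6, the integrin subunit of hemidesmosomes, was at 99.05, 134.9 and 120.2 CPM in CA-ERBB2 and at 167.9, 191.9 and 220.7 CPM in Control (edgeR adjusted p = 0.918). Jup, Pkp4 and Dst had means of 53.92, 45.16 and 54.51 CPM in CA-ERBB2 and 48.19, 36.87 and 113.3 CPM in Control, with overlap of the plates.

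In the list of adherens and tight junctions, all 34 genes were tested, with a median log2 fold change of -0.04. F11r, a junctional adhesion molecule, was at 89.79, 86.84 and 293.5 CPM on the CA-ERBB2 plates and at 30.91, 28.01 and 51.87 CPM on the Control plates (log2 fold change 2.09, SE 0.63, edgeR adjusted p = 0.886). Cldn23 and Pard6b, a claudin and a polarity protein, were lower on every CA-ERBB2 plate, with log2 fold changes of -2.16 (SE 1.21) and -2.44 (SE 1.22). The most abundant genes overlapped between the genotypes. Ctnnb1 (beta-catenin), which binds CDH1, was at 721.8 ± 337.9 and 641.3 ± 209.6 CPM, Epcam at 507 ± 222 and 315.9 ± 197, Cldn9 at 161.9 ± 62.45 and 238.1 ± 74.5, and Ctnna1 at 125.4 ± 27.43 and 125.6 ± 21.02 CPM in CA-ERBB2 and Control.

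In the list of regulators of epithelial identity, all 22 genes were tested and the median log2 fold change was -0.12. Muc1, a mucin of apical surfaces, was at 0.2804, 0.1372 and 49.23 CPM on the CA-ERBB2 plates and at 0, 0.0336 and 0 CPM on the Control plates, so that CA-ERBB2 plate 3 held nearly all of it (edgeR adjusted p = 0.806). Twist1 and Snai2, repressors of epithelial genes, were at 101.9 ± 12.95 and 29.08 ± 6.343 CPM in CA-ERBB2 and at 48 ± 25.45 and 11.09 ± 9.306 CPM in Control, with every CA-ERBB2 plate above every Control plate (edgeR adjusted p = 0.911 and 0.918). In this list the plates separated upward for 4 genes and downward for 0. The fourth gene was Rab25, at 66.27, 65.57 and 71.13 CPM on the CA-ERBB2 plates and at 24.81, 34.75 and 40.28 CPM on the Control plates. Vim, Zeb2 and Spint2 were at 1105 ± 624.7, 101.4 ± 64.3 and 145.7 ± 52.25 CPM in CA-ERBB2 and at 677.7 ± 88.07, 117.7 ± 14.86 and 275 ± 98.92 CPM in Control, and their plates overlapped.

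For each member with counts in at least 10 cells, the 5 most similar of 21825 genes were taken by the Pearson correlation of log2(CPM + 1), centred on each plate, over all cells of both genotypes. The cells share plates and differ in depth, and these correlations are descriptions. Those of Krt17 were Fetub (0.72), Rufy4 (0.70), S100a14 (0.69), Cutal (0.68) and Sfn (0.67). Sfn encodes 14-3-3 sigma, a protein of stratified epithelia, and S100a14 a calcium-binding protein of epithelia. Fetub (fetuin B) was detected in 16, 3 and 2 cells on the CA-ERBB2 plates and in 0 of 177 Control cells, and 18 of its 21 cells had Krt17. S100a14 was at 38.43, 30.83 and 50.27 CPM on the CA-ERBB2 plates and at 0.02944, 0 and 3.638 CPM on the Control plates. Sfn overlapped between the genotypes, at 10.12, 3.358 and 2.517 CPM and at 4.189, 0.252 and 8.987 CPM, so that the genes that followed Krt17 from cell to cell did not all separate the genotypes.

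Among the members, Krt17 was most similar to Plet1 (0.67), then to Krt8 (0.49), Krt18 (0.48) and Krtdap (0.45), and least to Krt19 (0.07). The genes most similar to Krtdap were Cckbr (0.54), a receptor of gastrin and cholecystokinin, Gpx6 (0.46), Cutal (0.45), Krt17 (0.45) and Gm20531 (0.44). In cells thinned to 100000 counts, 2 of these 5 stayed among the 5 most similar, and Gpx6 was at 0.26. Cckbr was detected in 10, 4 and 1 cells on the CA-ERBB2 plates and in 0, 2 and 0 on the Control plates, and 11 of its 15 CA-ERBB2 cells had Krtdap. Plet1 was followed by Plet1os (0.98), with the overlap of exons given above, then by C330022C24Rik (0.74), Urah (0.72), the claudin Cldn7 (0.71) and Cutal (0.69). Cldn7 was at 120.7, 92.73 and 77.77 CPM on the CA-ERBB2 plates and at 37.93, 39.4 and 41.48 CPM on the Control plates (edgeR adjusted p = 0.911).

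Krt8 was followed by Gm36026 (0.84), with which it shares 101 exon bases on opposite strands, by the epithelial splicing regulator Esrp1 (0.76), Mal2 (0.76), Krt18 (0.74) and Rhpn2 (0.73). Those of Krt18 were Krt8 (0.74), Marveld3 (0.69), Gm5200 (0.69), Sall3 (0.69) and Ush1c (0.69), of which Gm5200 had 0.27 in thinned cells. Esrp1 was detected in 34 CA-ERBB2 and 33 Control cells. Cdh1 was most similar to Tmprss3 (0.64), Cldn9 (0.60), Isl1 (0.60), 2310030G06Rik (0.60) and Ildr1 (0.59), of which Tmprss3 and Ildr1 are known from deafness and Isl1 is a transcription factor of the developing sensory epithelium. The values of Krt19 were lower and rested on few cells, with Wfdc3 (0.49), Krt23 (0.43), Gm5860 (0.39), Mir6363 (0.39) and Matn1 (0.38), and none of these 5 remained among the first 5 in thinned cells.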

How the data were processed

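The values deposited by the authors are whole-number counts of reads per gene and cell, with no normalization. Reads were trimmed with fastp, mapped to GRCm38 (Gencode M25) with STAR 2.7.6a and counted by strand on exons with featureCounts (Subread 2.0.1). Coordinates and exon lengths came from Gencode on the same build. No 2 cells had identical counts. The cells of a plate were added up and compared in edgeR 4.0.16 (R 4.3.3; TMM, filterByExpr, quasi-likelihood test, Benjamini-Hochberg adjusted p under 0.05), 3 plates against 3. The SE of an edgeR log2 fold change was its absolute value divided by the square root of its F statistic. It was not taken from the fit, and is a rough guide where a genotype had few counts. DESeq2 1.42.0, limma 3.58.1 and leaving out plates or wells were alternatives. The limma fit used the plate means of log2(CPM + 1) per cell, so its estimates are on another scale. A permutation of 3 against 3 plates cannot go below p = 0.1. P-values measure the spread between plates, each of pooled pups. In a simulation of this comparison with 21416 genes, edgeR called 14 of 100 genes with an 8-fold change, 57 of 100 with a 64-fold change and 4 unchanged genes. Thinning to 100000 counts left out 2 CA-ERBB2 and 33 Control cells. Members and lists were chosen with earlier results of these data known. Genes named were all members, and from each list any gene called, the 4 highest by mean CPM and up to 3 with the largest change among those whose plates separated, and the 5 genes most similar to each member. Genes singled out otherwise (Trp63, Sox2, Serpinb2, Rab25) were chosen after their values were seen. The limit of 8000 genes, with and without wells A12 to D12, and the marker counts without these wells were added after the data were seen. Doublets were not estimated.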

Additional observations from a re-analysis of the deposited data

How the results depend on the processing

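Over all genes, 1 gene was called by edgeR, 233 by DESeq2, 285 with no filter on low counts and 0 by limma with every cell weighted equally (188 at an unadjusted p under 0.05), and leaving out each plate gave 0 to 2. Without CA-ERBB2 plate 1 there were 2 (Serpinb2 and Il12a), and without Control plate 1 or without Control plate 3 there were 0 (1503 and 1189 at an unadjusted p under 0.05). Of the list genes 0 were called by edgeR, 4 by DESeq2 and 3 with no filter (Lama3, Muc1 and Sprr1a), and leaving out each plate gave 0 to 0. With the plate number as a replicate block, 1 gene (Serpinb2) and 0 list genes were called. Deviations of same-numbered plates correlated at 0.215, 0.082 and 0.077, and every plate correlated best with the plate of its own number. The labels do not say that plates of the same number came from the same sort, and the numbers were not taken to pair the plates. The block moved the log2 fold changes of Krt17 to 8.76, Plet1 to 5.76, Krt19 to 9.27 and Krt15 to 2.60. Beside the values without 1 plate given with each gene, the log2 fold change of Plet1 was 6.65 without Control plate 2, that of Krt18 0.34 without CA-ERBB2 plate 3, and that of Krt15 7.97 when Control plate 1 was dropped and -3.40 when CA-ERBB2 plate 3 was. The share of CA-ERBB2 cells with Krt18 that had Krt17 was 38.9% without CA-ERBB2 plate 1. The difference in detection between genotypes was 12.4 percentage points for Krt17 (9.70 to 28.9 under 7 alternatives, the highest in cells with at least 8000 genes, or 25.5 when wells A12 to D12 were also left out; 5.08 to 16.1 when each plate was left out) and 10.7 points for Krtdap (7.88 to 18.9, the highest in the same cells; 8.76 to 13.0 when each plate was left out). Of 95 estimates of the members' log2 fold changes under alternatives, 78 stayed within the standard error of the value given, and of 80 shares of co-detection, 73 stayed within their interval. Of 21 lists of the 5 genes most similar to a member, 7 kept at least 4 genes and 14 kept fewer. In cells thinned to 100000 counts the median number of genes was 7620, 1838 and 1051.5 on the CA-ERBB2 plates, and Krt19 was found in 4 cells in place of 11 on plate 1. A member not detected in a cell may be expressed there.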
